A study of Mus musculus with 4 samples.

Results

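The genes described here are those whose symbols begin with the names of cell division families (cyclins, cyclin-dependent kinases and their inhibitors, E2F factors, Bub, Mad, Cenp, Aurora, Polo and Nek proteins, anaphase-promoting complex, condensin and SMC proteins, augmin, kinesins and CDC genes). They were taken by symbol from the autosomal rows of the deposited table, without Ccnd1, Ccnd3, Cdk6, E2f2 and the Cdc42 genes, and numbered 148 of 9615 genes. Histone H3 acetylated at lysine 9 (H3K9ac), which marks promoters and enhancers in use, was measured by chromatin immunoprecipitation and sequencing in leukaemic bone marrow cells of mice. The library called tg came from Gfi1b fl/fl mice that carry MxCre tg together with NUP98/HOXD13 tg, and the library called WT from Gfi1b fl/fl mice with NUP98/HOXD13 tg but MxCre wt. Both strains thus carry floxed alleles of Gfi1b, a gene for a repressor of transcription in blood cells, and the NUP98-HOXD13 leukaemia transgene, and they differ in the Mx-Cre transgene, a Cre recombinase under the interferon-responsive Mx promoter. Red cells were lysed and the chromatin was fixed with 1% formaldehyde. Rabbit IgG libraries of both strains are not analysed here. The age of the mice, the number of animals per library and any induction of Cre are given in none of the sources used.

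The cell division cycle is driven by cyclins that activate cyclin-dependent kinases (CDKs), held in check by CDK inhibitors, while E2F factors switch the genes for DNA synthesis and mitosis on and off. In mitosis, Aurora, Polo and Nek kinases, condensins, kinesin motors and the centromere proteins build the spindle and attach chromosomes to it. The spindle checkpoint then restrains the anaphase-promoting complex until every chromosome is attached. In bone marrow these genes serve the rapid division of blood cell precursors.

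There was 1 H3K9ac library per genotype, so no difference between tg and WT has a replicate check and no p-value is given. A level is the authors' log2 value per gene, and scaled reads are reads per 1000000 of a total for each library. That total, recovered from the values themselves, was 163712 reads in tg and 309649 in WT. The 9530 genes with recovered reads held 165951 reads in tg and 319003 in WT, with shared probes counted more than once. The total may thus be the reads counted in probes and is not shown to be the sequencing depth. Read numbers were likewise recovered from the log2 values for all 148 genes of the set. Where a gene has several probes, their reads are listed from lowest to highest in each library. Intervals are 95% intervals of the ratio of scaled reads, summed over a gene's probes (the regions counted by the authors), and cover counting error only. "Higher" and "lower" mean at least 2-fold by the difference of the log2 values between these 2 libraries. A gene that appears in the table with 1 probe held at least 9 reads over both libraries together, so weakly marked genes of these families are not among those described. Of the marker lists, 15 of 16 erythroid genes with a row were higher in tg and 0 were lower, with 4105 summed scaled reads in tg and 882 in WT over the 14 with recovered reads. All 5 neutrophil genes with a row were lower (55.0 summed scaled reads in tg and 313 in WT). Of 7 monocyte and macrophage genes, 1 was higher and 3 were lower, with 415 summed scaled reads in tg and 1863 in WT. Among the 4 lymphoid genes with a row, 0 were higher and 0 lower. Alas2, Rhag and Epor, 3 erythroid genes, had 0 reads in WT. Fewer cells of a type and less mark per cell cannot be told apart in such bulk samples, and the part of these marker differences in the results that follow was not tested. Gfi1b itself, the floxed gene and also on the erythroid list, held 108 reads in tg and 12 in WT over its 4 probes, 17.0-fold higher (9.36 to 34.0), and as the probe positions are not given this does not show whether its floxed part was deleted. The 2 Y-linked genes of the table held 1 read in tg and 50 in WT.

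As a set, the cell division genes carried H3K9ac at much the same level in both libraries, and few of them were lower in tg. Their reads made up 1.67% of the recovered tg total (exact binomial 95% interval 1.61 to 1.73%) and 1.56% of the WT total (1.52 to 1.60%). Of the 148 genes, 24 were higher in tg, 16.2% against a background of 16.5% of all genes in the table. In the other direction 11 were lower, 7.43% against a background of 15.8%. At this limit the share of higher genes was at the background, and the share of lower genes was under it. At a limit of 1.5-fold, 35.8% were higher (background 28.7%) and 14.9% lower (background 25.4%). At 3-fold, 6.08% were higher (background 8.49%) and 4.05% lower (background 7.99%). The share of higher genes thus lay above, at or under the background with the limit chosen, and that of lower genes lay under it at each of these limits. The median log2 ratio of tg over WT was 0.14, with a range of -2.30 to 4.24, beside a median of 0.05 over all genes. Kif5c, which has 0 WT reads, stays above the median when set at its bound, so the median of the set is 0.14 either way.

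By summed reads, 22 genes of the set were at least 2-fold higher in tg (background 14.9%) and 11 at least 2-fold lower (background 15.3%). The counting interval lay wholly above 1 for 20 genes (background 12.9%) and wholly below 1 for 10 (background 12.8%). For the other 118 it included 1, so at this depth most differences were not detectable. The median gene of the set rested on 16 reads in tg and 23.5 in WT. Levels in the 2 libraries had a Spearman coefficient of 0.70 across the 148 genes and 0.57 across all 9615, and genes that share libraries are not independent replicates. Sorted by role, 112 genes belong to families of the cell cycle machinery, of which 19 were higher and 5 lower (17.0% and 4.46%, beside backgrounds of 16.5% and 15.8%). These families were sorted by symbol and hold some genes with other main roles, such as Cdkn2aip, Nek8 and Mad2l2. The other 36 are transport kinesins, transcriptional cyclins and CDKs, and other CDC-named genes, of which 5 were higher and 6 lower (13.9% and 16.7%). They too were sorted by symbol and hold some genes with cell cycle roles, such as Cdk7. The counting interval lay above 1 for 15 of the 112 genes and 5 of the 36. It lay below 1 for 8 of the 112 and 2 of the 36. Among the 6 lower genes of the 36, only Kif21b had an interval that leaves out 1. The contrast in lower genes between these groups thus depends on the measure used. The roles described next hold 6 to 19 genes each, and their counts stand beside these same backgrounds as descriptions.

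**Figure D1:**
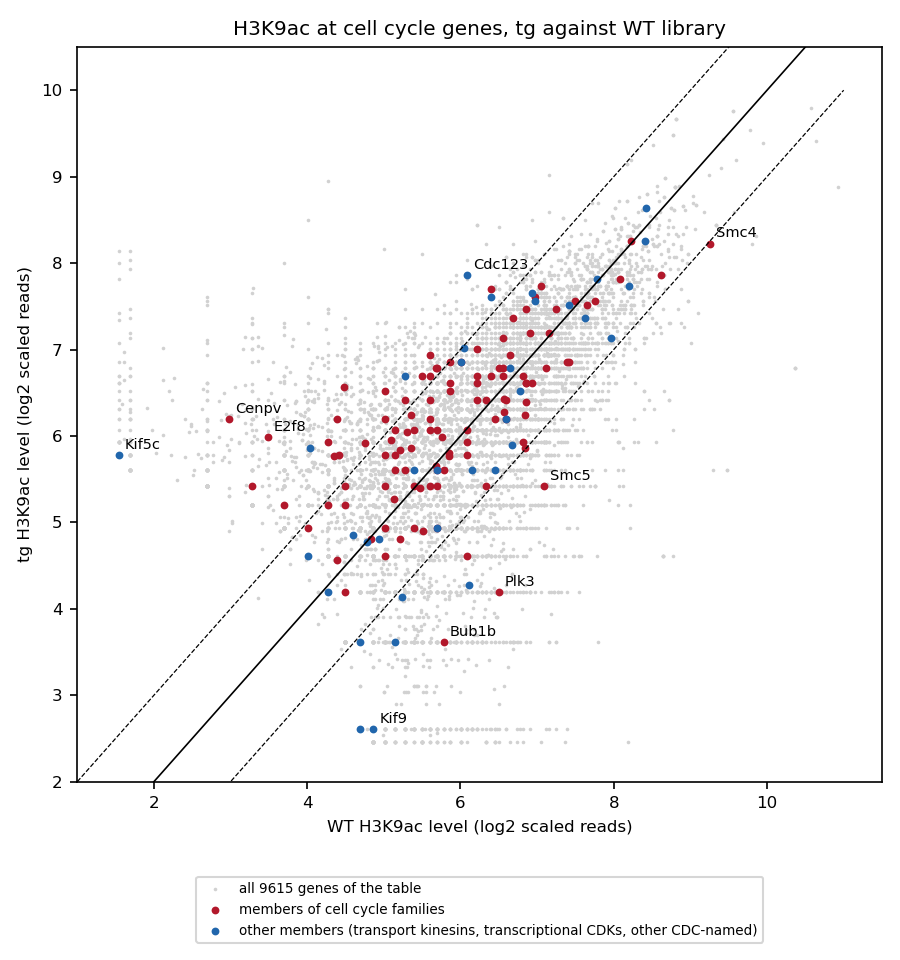
H3K9ac level per gene in the tg library (vertical axis, log2 scaled reads) against the WT library (horizontal axis, log2 scaled reads); grey points are all genes of the table, coloured points the 148 cell division genes (red those of cell cycle families, blue the others), the solid line marks equality and the dashed lines a 2-fold difference. Most coloured points lie between the dashed lines, 24 lie above and 11 below.

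The mitotic cyclins and Cdk1 all had more scaled reads in tg, although most of their intervals included 1. Ccnb2, which encodes cyclin B2, a partner of CDK1 at entry into mitosis (chromosome 9, 70407689 to 70421554, GRCm38), held 20 reads in tg and 15 in WT. This corresponds to 122 scaled reads in tg and 48.4 in WT, a 2.52-fold higher level (1.23 to 5.29), and Ccnb2 was the 1 gene of the 10 cell cycle cyclins and CDKs that was higher. Ccnb1, the cyclin B1 gene, held 11 reads in tg and 11 in WT, a ratio of 1.89 (0.744 to 4.81). Ccna2, the gene of cyclin A2 of the S and G2 phases, held 21 reads in tg and 23 in WT (1.73, 0.909 to 3.26). Cdk1, the kinase gene that drives mitosis and the one with the highest tg level here, had 35 reads in tg and 41 in WT (1.61, 0.998 to 2.60). In these genes the tg reads were more than, equal to or nearly as many as the WT reads. The recovered tg total was 1.89 times smaller than the WT total. Ccne2, the gene of cyclin E2, which acts at the start of DNA synthesis, had 9 reads in tg and 11 in WT (1.55, 0.567 to 4.11). The cyclin G genes Ccng1 and Ccng2 had log2 ratios of 0.75 and 0.22. The interphase kinase genes Cdk2 and Cdk4 were near equality, at -0.07 and -0.03. Ccnd2 went the other way: the gene of cyclin D2, which couples growth signals to the cell cycle, held 6 and 15 reads in tg, against 31 and 41 in WT over its 2 probes, 1.81-fold lower by summed reads (1.10 to 3.10). Its log2 ratio of -0.99 lay just inside the 2-fold limit.

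The upstream window of Ccnb2 is shown because it is the mitotic cyclin furthest apart and holds several of the motifs searched (chosen after its values were seen). It covers the 250 bases before the RefSeq start of transcription (chr9:70421555-70421804, minus strand, RefSeq on GRCm38.p6). Capitals mark matches to the letters of CCAAT boxes (CCAAT) and of a CHR element (TTTGAA).
Ccnb2: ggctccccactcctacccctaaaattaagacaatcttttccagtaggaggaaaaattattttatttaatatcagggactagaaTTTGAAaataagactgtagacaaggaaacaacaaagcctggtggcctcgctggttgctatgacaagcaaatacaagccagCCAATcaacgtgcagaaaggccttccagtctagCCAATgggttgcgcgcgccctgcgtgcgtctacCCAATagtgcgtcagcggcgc
The CCAAT box is bound by the factor NF-Y, and the CHR element is the site through which the DREAM complex and B-MYB act on mitotic genes. The CHR match starts 167 bases before the start site, further out than the CCAAT boxes at 87, 54 and 21 bases. CHR letters occur in 19.6% of all genes with a window, so this match is not shown to be a working site. Sites beyond the start of transcription lie outside the window and were not searched. The probe positions are not in the deposited table, so no read can be placed on this window.

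Of the genes named for CDK inhibitors, 3 were higher in tg by the deposited values, Cdkn1b was near equality and Cdkn1a had a negative log2 ratio. Cdkn2a, the locus of the inhibitor INK4A and of ARF (chromosome 4, 89274473 to 89294653), held 8 and 10 reads in tg, against 2 and 20 in WT over 2 probes. Its log2 ratio of 1.42 averages the probes alike, whereas the summed reads gave a log2 ratio of 0.63, a ratio of 1.55 (0.782 to 3.02). Cdkn2c, the gene of INK4C, held 9, 11 and 60 reads in tg, against 5, 9 and 89 in WT over 3 probes. Its log2 ratio was 1.11 but 0.55 by the sum, a ratio of 1.47 (1.08 to 1.99). The interval of Cdkn2c lay above 1 and that of Cdkn2a did not. Cdkn2d, the gene of INK4D, had 7, 13 and 14 reads in tg, against 5, 12 and 30 in WT (log2 ratio 0.75). Cdkn1b, which encodes p27 and had the highest WT level of the inhibitors, was equal for the depth with 50 reads in tg and 93 in WT (1.02, 0.706 to 1.45). Cdkn1a, the gene of p21, a target of p53, had 4 and 6 reads in tg, against 6 and 33 in WT, 2.06-fold lower by summed reads (1.01 to 4.63) with a log2 ratio of -0.60. Of the 8 genes taken in under this prefix, 3 were higher and 0 lower. The 3 include Cdkn2aip, which is no inhibitor but encodes a protein that binds ARF, with 12 reads in tg and 10 in WT and an interval that includes 1 (0.899 to 5.86). The phosphatase gene Cdkn3 (9 reads in tg and 10 in WT) and Cdkn2aipnl (7 reads in tg and 10 in WT) were within 2-fold.

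Of the E2F genes, the atypical repressor genes E2f7 and E2f8 and the repressor gene E2f5, whose product binds pocket proteins, were higher in tg. The activator genes E2f1 and E2f3 and E2f5's relative E2f4 were within 2-fold. E2f8 (chromosome 7, 48866429 to 48881596) held 9 and 12 reads in tg, against 3 and 4 in WT over its 2 probes, 5.67-fold higher (2.32 to 15.8). E2f7 (chromosome 10, 110745439 to 110787384) held 12 and 12 reads in tg, against 6 and 7 in WT, 3.49-fold higher (1.71 to 7.47). In both genes every probe had more reads in tg than any probe had in WT, despite the smaller tg total. E2f5 had 10 reads in tg and 6 in WT on 1 probe (3.15-fold higher, 1.04 to 10.6), and E2f4 had 11 reads in tg and 15 in WT (1.39, 0.576 to 3.23). E2f1 had 5 reads in tg and 16 in WT (log2 ratio -0.76, interval of the ratio 0.169 to 1.69). E2f3 had 6 and 33 reads in tg, against 10 and 87 in WT (log2 ratio -0.15, interval of the ratio 0.510 to 1.11). Among the 6 genes, 3 were higher and 0 lower. The counts of both E2f8 probes in each library also occur at the overlapping gene model Gm2788, so its reads cannot be assigned to E2f8 alone.

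The windows before the starts of E2f7 (chr10:110745189-110745438, plus strand, chosen after its values were seen) and E2f8 (chr7:48881597-48881846, minus strand) are shown for these repressors, whose products act on E2F sites. Capitals mark matches to the letters of an E2F site and CCAAT boxes in E2f7, and of a CCAAT box and a CHR element in E2f8.
E2f7: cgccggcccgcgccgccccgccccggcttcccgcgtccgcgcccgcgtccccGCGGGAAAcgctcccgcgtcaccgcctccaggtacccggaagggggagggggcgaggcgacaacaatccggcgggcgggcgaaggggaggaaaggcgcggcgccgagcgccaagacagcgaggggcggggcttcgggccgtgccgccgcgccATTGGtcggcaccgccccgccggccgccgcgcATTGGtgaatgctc
E2f8: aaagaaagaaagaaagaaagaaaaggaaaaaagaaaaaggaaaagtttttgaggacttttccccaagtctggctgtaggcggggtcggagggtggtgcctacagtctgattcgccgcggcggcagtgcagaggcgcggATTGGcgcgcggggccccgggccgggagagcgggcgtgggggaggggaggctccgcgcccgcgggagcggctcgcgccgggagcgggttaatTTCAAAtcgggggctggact
The E2F site of E2f7 starts 198 bases before the start site, and the CHR element of E2f8 starts 20 bases before it. No E2F site was found in the E2f8 window, which says only that these letters are not in these 250 bases.

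**Figure D2:**
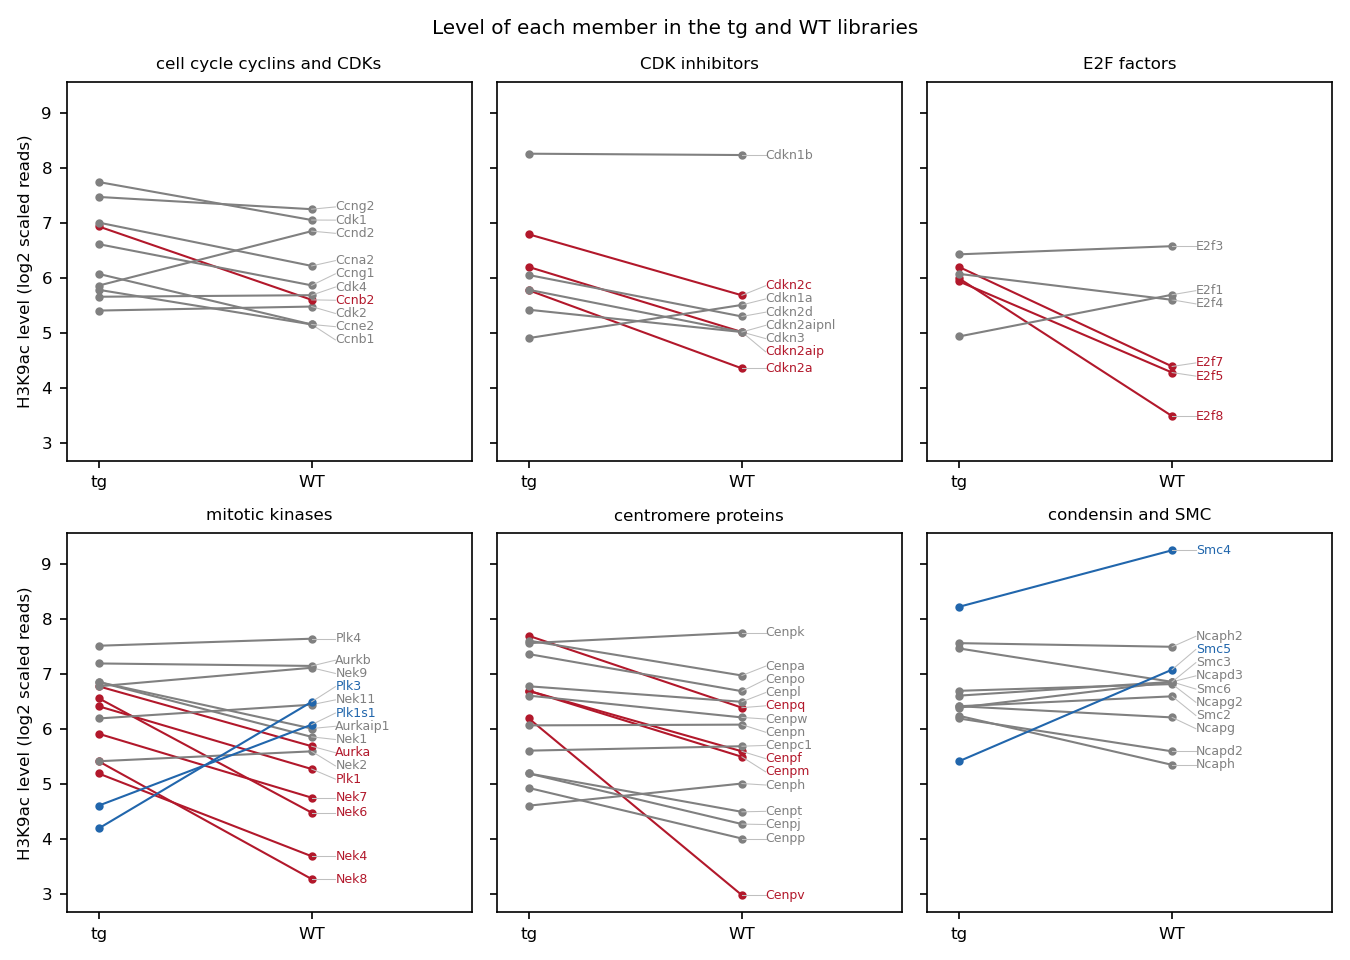
H3K9ac level (log2 scaled reads) of each gene of 6 roles in the tg library (left) and the WT library (right), with lines joining the values of a gene; red lines are genes at least 2-fold higher in tg, blue lines at least 2-fold lower and grey lines the rest. The E2F and Nek genes that rank lowest in WT lie within the range of the other genes of their role in tg, and Smc4 has the highest level of its role in both libraries.

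Genes of the CDC25 and CDC14 phosphatases and of replication initiation were within 2-fold in all 8 cases by the deposited values. The CDC25 phosphatases remove the inhibitory phosphates from CDKs. Cdc6, which loads the replicative helicase onto origins, had 5, 14 and 15 reads in tg, against 9, 10 and 13 in WT over 3 probes. Its log2 ratio was 0.87 by the deposited values and 1.01 by summed reads, a summed ratio of 2.01 (1.20 to 3.36). Cdc25b, with the highest log2 ratio of them at 0.92, held 7 reads in tg and 7 in WT (1.89, 0.566 to 6.32) and Cdc25c 8 reads in tg and 11 in WT (1.38, 0.480 to 3.75). The counts of Cdc25b also occur at the neighbour Spef1. Cdc25a, which acts from G1 into S phase, had 9 and 12 reads in tg, against 6 and 47 in WT over 2 probes. Here the log2 ratio was 0.23 and the summed ratio 0.749 (0.429 to 1.26), opposite in sign. Cdc7, the kinase gene that fires origins, had 10 reads in tg and 21 in WT, and the helicase subunit gene Cdc45 had 5 reads in tg and 13 in WT. The phosphatase genes Cdc14a and Cdc14b had log2 ratios of -0.41 and 0.33.

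Of the 15 genes sorted by symbol as mitotic kinases, 6 were higher and 2 lower. The 15 include Aurkaip1 (log2 ratio 0.85), taken in by its prefix. Aurka, the gene of Aurora A, which matures centrosomes and the spindle poles (chromosome 2, 172356190 to 172370535), held 18 reads in tg and 16 in WT, 2.13-fold higher (1.02 to 4.46). Plk1, the main Polo kinase of mitosis, held 14 reads in tg and 12 in WT, also over 2-fold, but its interval includes 1 (2.21, 0.947 to 5.22). Its counts in both libraries also occur at the overlapping gene model Gm15489. Aurkb, the kinase gene of the chromosomal passenger complex, was near equality with 24 reads in tg and 44 in WT (1.03, 0.600 to 1.73). Plk4, which starts centriole duplication, was so too with 30 reads in tg and 62 in WT (0.915, 0.571 to 1.44). Plk3, a Polo kinase gene of the stress response, was at the other end (chromosome 4, 117128655 to 117133963): it held 3 reads in tg and 28 in WT, 4.93-fold lower (1.52 to 25.4), the lowest log2 ratio of the whole set at -2.30. The other lower gene, Plk1s1, encodes a centrosome protein named Kizuna and is a substrate of PLK1 rather than a kinase. It had 4 reads in tg and 21 in WT, with an interval that includes 1 (2.78-fold lower, 0.937 to 11.1).

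The NIMA-related kinase (Nek) genes, 8 of the 15 genes of this role, made up 4 of the 6 higher ones. Nek6 and Nek7 encode the kinases that act below NEK9 in spindle assembly. Nek6 held 12 and 20 reads in tg, against 2 and 24 in WT over 2 probes. Its log2 ratio was 2.08 by the deposited values but 1.22 by summed reads, a summed ratio of 2.33 (1.34 to 4.07). Nek7 held 7 and 14 reads in tg, against 5 and 14 in WT (2.09, 1.07 to 4.11). Nek8, a kinase of the primary cilium, had 7 reads in tg and 3 in WT (4.41-fold higher, 1.01 to 26.4), and Nek4 had 6 reads in tg and 4 in WT (2.84, 0.673 to 13.7). Both of these rest on few reads, and the interval of Nek4 includes 1. Nek1, with 19 reads in tg and 18 in WT, lay just under the 2-fold limit (log2 ratio 0.997). Nek9 itself was not higher (18 reads in tg and 43 in WT, log2 ratio -0.34), nor were the centrosome kinase gene Nek2 (-0.18) and Nek11 (-0.25), which has the values of its neighbour Aste1.

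Spindle checkpoint genes were within 2-fold with 1 exception. Bub1b, which encodes BUBR1, the checkpoint inhibitor of the anaphase-promoting complex (chromosome 2, 118598211 to 118641591), held 2 reads in tg and 17 in WT. It was 4.49-fold lower, on 2 tg reads, and the interval of 1.07 to 40.1 nearly reaches equality. Its partners differed in direction: Bub3 had 17 reads in tg and 23 in WT (log2 ratio 0.48), Mad2l1, the MAD2 gene, 15 reads in tg and 18 in WT (0.66), and Mad1l1 20 reads in tg and 31 in WT (0.29). Bub1 was thinly covered with 3 reads in tg and 7 in WT (ratio 0.811, 0.135 to 3.55). Mad2l2, whose product works mainly in DNA repair and translesion synthesis, had 7 reads in tg and 25 in WT (-0.92). Mad2l1bp, whose protein p31comet silences the checkpoint, had 14 reads in tg and 15 in WT (0.82).

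The windows of the lower genes Plk3 (chr4:117133964-117134213, minus strand) and Bub1b (chr2:118597961-118598210, plus strand), and of the kinesin gene Kif9 (chr9:110476708-110476957, plus strand), are shown as the 3 members with the lowest log2 ratios and a window. Capitals in Bub1b mark matches to the letters of a CHR element and a CCAAT box, and the other windows held none of the motifs.
Plk3: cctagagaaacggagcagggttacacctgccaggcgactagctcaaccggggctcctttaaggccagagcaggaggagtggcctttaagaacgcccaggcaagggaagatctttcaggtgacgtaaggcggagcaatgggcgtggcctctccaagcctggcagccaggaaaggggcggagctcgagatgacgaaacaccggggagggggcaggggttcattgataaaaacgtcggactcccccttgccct
Kif9: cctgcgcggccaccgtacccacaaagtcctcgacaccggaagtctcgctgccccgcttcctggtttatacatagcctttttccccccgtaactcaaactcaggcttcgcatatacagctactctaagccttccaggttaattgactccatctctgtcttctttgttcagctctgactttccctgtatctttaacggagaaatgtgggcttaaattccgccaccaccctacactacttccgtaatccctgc
Bub1b: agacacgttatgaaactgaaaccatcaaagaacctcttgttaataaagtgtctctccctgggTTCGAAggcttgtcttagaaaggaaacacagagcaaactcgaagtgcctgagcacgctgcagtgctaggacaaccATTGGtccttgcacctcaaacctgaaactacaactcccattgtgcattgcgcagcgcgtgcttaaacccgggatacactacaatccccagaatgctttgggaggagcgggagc
In the Bub1b window the CHR match starts 188 and the CCAAT box 113 bases before the start site, and neither is shown to be a working site.

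The anaphase-promoting complex, the ubiquitin ligase that ends mitosis, was close to equality: 7 of its 14 subunit and activator genes had a positive and 7 a negative log2 ratio, with a median of 0.03. Cdc20, the mitotic activator, had 24 reads in tg and 37 in WT (1.23, 0.702 to 2.11). The subunit gene Cdc26 was the 1 called higher, with 9 and 9 reads in tg, against 2 and 22 in WT over 2 probes and a log2 ratio of 1.36. Its summed reads gave a log2 ratio of 0.50, a ratio of 1.42 with an interval of 0.725 to 2.73. The Cdc26 counts of 9 in tg and 2 in WT also occur at the neighbour Slc31a1. Cdc27, with the same values as its neighbour Myl4, had the most reads of the complex in both libraries (38 reads in tg and 122 in WT), 1.70-fold lower (1.17 to 2.51). Anapc11, the RING subunit gene, had 7 and 22 reads in tg, against 17 and 74 in WT, 1.66-fold lower by summed reads (1.08 to 2.61). Its counts of 22 in tg and 74 in WT also occur at the neighbour Alyref. Anapc13, which has the values of its neighbour Cep63, had 37 reads in tg and 84 in WT (0.833, 0.550 to 1.24). Anapc10 had 8 and 11 reads in tg, against 3 and 44 in WT, and its log2 ratio of 0.63 and summed ratio of 0.765 differed in direction. The Anapc10 counts of 11 in tg and 44 in WT also occur at the neighbour Abce1. The other Anapc genes and the subunit genes Cdc16 and Cdc23 had log2 ratios between -0.40 and 0.50.

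Centromere protein genes were higher or within 2-fold: 4 of 15 were higher and 0 lower, with a median log2 ratio of 0.67. Cenpv, whose product binds microtubules and centromeric heterochromatin (chromosome 11, 62524946 to 62539261), held 8 and 18 reads in tg, against 1 and 6 in WT over 2 probes. Summed over both, Cenpv was 7.03-fold higher (2.97 to 19.2), and its log2 ratio of 3.21 was the highest among the cell cycle families. Cenpq, a subunit of the constitutive centromere network, held 34 reads in tg and 26 in WT (2.47-fold higher, 1.44 to 4.29), but Mut, the methylmalonyl-CoA mutase gene next to it, has the same values. Cenpm, of the same network, held 17 reads in tg and 14 in WT (2.30, 1.07 to 5.03). Cenpf, a large kinetochore and microtubule-binding protein gene of G2 and mitosis, held 17 reads in tg and 15 in WT (2.14, 1.01 to 4.61). The intervals of these 4 genes lay above 1, those of Cenpm and Cenpf narrowly. Cenpa, which encodes the centromeric histone H3 variant, had 32 reads in tg and 39 in WT (1.55, 0.941 to 2.54), and Cenpk, with the values of its neighbour Ppwd1, had 31 reads in tg and 67 in WT (0.875, 0.552 to 1.36). The remaining Cenp genes, among them Cenpc1, Cenph, Cenpn, Cenpt and Cenpo, which has the values of 2410017P09Rik, had log2 ratios of -0.40 to 0.92, and the interval of each includes 1.

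The window before the start of Cenpv (chr11:62539262-62539511, minus strand), which has the second highest log2 ratio of the set, held none of the motifs.
Cenpv: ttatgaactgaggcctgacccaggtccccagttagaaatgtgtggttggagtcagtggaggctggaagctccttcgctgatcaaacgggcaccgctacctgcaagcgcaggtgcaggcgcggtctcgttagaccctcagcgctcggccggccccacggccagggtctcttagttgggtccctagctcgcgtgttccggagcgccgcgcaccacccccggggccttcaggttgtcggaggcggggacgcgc
It has 22 CpG dinucleotides and 65.6% G and C, beside medians of 17 CpG and 60.4% over the genes of the table with a window.

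Condensin and SMC genes, whose products fold and hold chromosomes, included the gene with the highest WT level of the set. Smc4, the ATPase gene shared by both condensins (chromosome 3, 69004738 to 69034623), held 49 reads in tg and 189 in WT, or 299 scaled reads in tg and 610.4 in WT. It was 2.04-fold lower in tg, and with its many reads the interval was narrow (1.48 to 2.85). Smc2, the partner ATPase gene of condensin, had 14 reads in tg and 30 in WT and was near equality (0.883, 0.432 to 1.72). The same counts occur at its neighbour 2700081L22Rik. The other lower gene was Smc5 with 7 reads in tg and 42 in WT (3.17-fold lower, 1.41 to 8.37). Smc6, whose product pairs with SMC5 in DNA repair, had 9 and 21 reads in tg, against 35 and 37 in WT (log2 ratio -0.47). Its counts of 21 in tg and 35 in WT also occur at the neighbour Gen1. Smc3, of cohesin, leaned the other way with 29 reads in tg and 36 in WT (0.61). All 6 Ncap genes, for the regulatory condensin subunits, were within 2-fold, from -0.25 for Ncapd3, which has the values of Vps26b, to 0.89 for Ncaph. Ncaph2, with the values of Lmf2, had the most reads of them in tg (31 reads in tg and 56 in WT).

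The genes of augmin, the complex that seeds new spindle microtubules on existing ones, were all within 2-fold. Its 7 Haus genes had log2 ratios of -0.53 to 0.59, and every interval includes 1. Haus2, with the values of Lrrc57, held 19 reads in tg and 52 in WT, and Haus6 held 23 reads in tg and 29 in WT.

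Mitotic kinesin genes were also mostly near equality, with 1 of 11 higher, 0 lower and a median log2 ratio of -0.08. Kif11, the motor gene that pushes spindle poles apart, had the most reads: 3 and 54 reads in tg, against 8 and 108 in WT over 2 probes, a summed ratio of 0.929 (0.665 to 1.29). Kif2a, for a motor that takes microtubules apart at the spindle poles, was the higher gene with 15 reads in tg and 10 in WT (2.84, 1.19 to 7.06). Its relative Kif2c had 3 and 5 reads in tg, against 6 and 7 in WT (log2 ratio 0.18). Kif15, with the values of its neighbour 1110059G10Rik, had 19 reads in tg and 53 in WT (-0.56). Kif18a, which damps chromosome movement, had 10 reads in tg and 35 in WT (-0.89), counts that also occur at its neighbour Mettl15. The motor genes of cytokinesis Kif20a, which has the values of Brd8, and Kif23 had log2 ratios of -0.33 and -0.08.

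**Figure D3:**
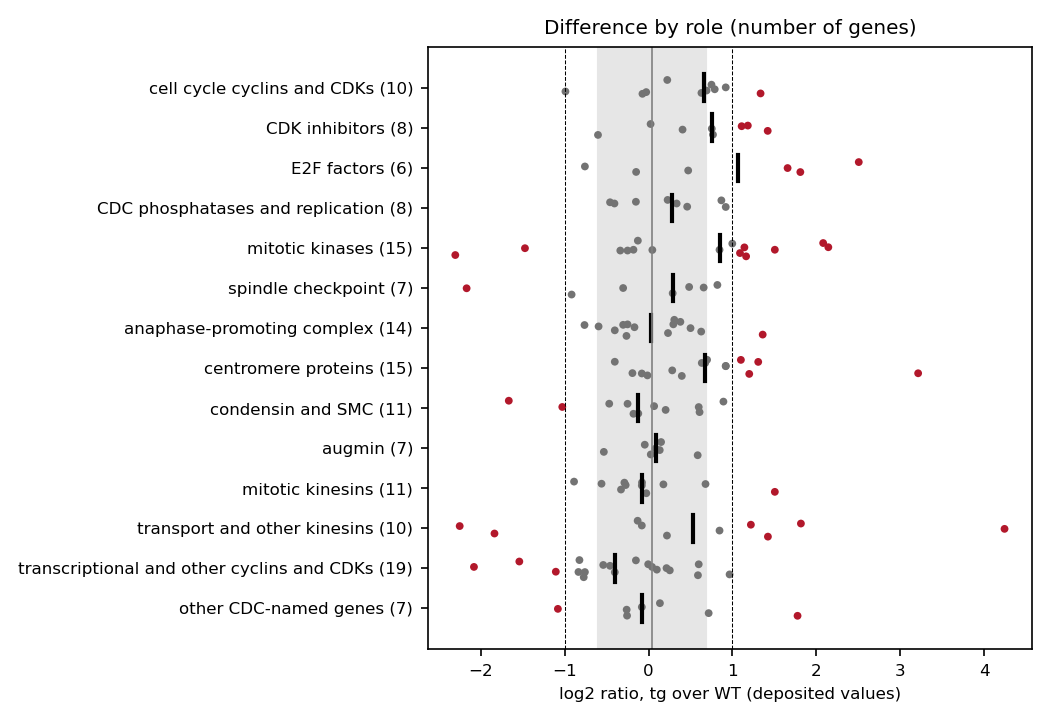
Log2 ratio of tg over WT (deposited values, horizontal axis) of every gene by role, with the number of genes in brackets; red points are at least 2-fold apart, black bars are role medians, the grey band spans the lower to the upper quartile of all genes and dashed lines mark 2-fold. The CDK inhibitor, E2F, mitotic kinase and centromere medians lie to the right of the median of all genes. So do those of the cell cycle cyclins and CDKs (0.66), transport kinesins (0.53), spindle checkpoint (0.29), CDC phosphatases and replication (0.28) and augmin (0.08). The other role medians lie to the left, that of the transcriptional cyclins and CDKs the furthest (-0.40).

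The genes outside the cell cycle families included the highest log2 ratio of the set. Kif5c, a heavy chain gene of the transport motor kinesin-1 (chromosome 2, 49619298 to 49774778), held 9 reads in tg and 0 in WT, at least 5.67-fold higher when WT is set at 3 reads, the limit that a count of 0 allows. With the counting error of its 9 tg reads included, the lower limit of the interval was 3.73. These 9 reads alone brought the gene to the minimum for a row. Its log2 ratio of 4.24, the highest of the set, depends on the 0.9 reads that the deposited values enter for 0. Kif5b, the widely expressed heavy chain gene, was higher too with 32 reads in tg and 26 in WT (2.33-fold, 1.34 to 4.07), whereas Kif5a, with the values of Arhgap9, had 3 reads in tg and 6 in WT. Kif1b, for a carrier of vesicles and mitochondria, had 9 and 10 reads in tg, against 2 and 13 in WT (2.40 by summed reads, 1.15 to 5.07), and Kif13b 17 reads in tg and 12 in WT (2.68, 1.21 to 6.15). Kif21b had 1 and 10 reads in tg, against 12 and 38 in WT and was 2.40-fold lower by summed reads (1.23 to 5.12). Kif9, a kinesin gene of cilia and flagella, had 1 read in tg and 9 in WT, and its interval includes 1 (4.76-fold lower, 0.659 to 209). Kif9 and the lower genes Cdk5 (1 read in tg and 8 in WT) and Cdc37 (2 reads in tg and 8 in WT) were at or near the minimum for a row, mostly through WT reads. The window before the start of Kif5c (chr2:49619036-49619285, plus strand), the gene with the highest log2 ratio, held none of the motifs.
Kif5c: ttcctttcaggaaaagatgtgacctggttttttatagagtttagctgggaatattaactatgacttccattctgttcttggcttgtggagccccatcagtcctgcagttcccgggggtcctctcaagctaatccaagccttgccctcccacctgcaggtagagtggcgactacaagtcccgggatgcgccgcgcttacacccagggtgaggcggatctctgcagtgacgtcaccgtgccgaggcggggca

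Cyclins and CDKs of transcription and other processes had 0 higher and 3 lower genes among 19, 15.8% lower beside the background of 15.8%. Cdk13, a kinase gene of RNA polymerase II elongation, had the highest tg level of the set with 65 reads in tg and 106 in WT and was near equality (1.16, 0.838 to 1.59). Ccnl1, a cyclin gene of splicing control, was so as well with 50 reads in tg and 105 in WT (0.901, 0.630 to 1.27), while Ccnl2 had 23 reads in tg and 77 in WT, 1.77-fold lower (1.10 to 2.96). Cdk12 had 11, 26 and 33 reads in tg, against 5, 26 and 66 in WT over 3 probes. Its log2 ratio was 0.97 by the deposited values but 0.45 by summed reads (summed ratio 1.36, 0.989 to 1.88). The lower genes were Cdk19, of the Mediator kinase module, Cdk14 and Cdk5. Cdk19 held 0, 0, 3, 5 and 16 reads in tg, against 4, 11, 11, 14 and 32 in WT over 5 probes, a log2 ratio of -1.11 and 1.59-fold lower by the sum (0.987 to 2.63). Cdk14 had 2 reads in tg and 11 in WT, and Cdk5, best known from neurons, had 1 read in tg and 8 in WT. All 3 intervals include 1, and the 2 highest counts of Cdk19 in each library also occur at its neighbour 4930520K10Rik. Cdk7, of the CDK-activating kinase, had 8 reads in tg and 27 in WT (log2 ratio -0.84). Cdk9, of the elongation factor P-TEFb, had 3, 5 and 7 reads in tg, against 6, 7 and 10 in WT (0.25). Its counts of 5 in tg and 10 in WT also occur at the neighbours Mir2861 and Mir3960. Of the other CDC-named genes, Cdc123, which assembles the translation factor eIF2, was 3.42-fold higher on 38 reads in tg and 21 in WT (1.96 to 6.14), with the same values as its neighbour Nudt5. Cdc37, a co-chaperone gene for kinases, had 2 reads in tg and 8 in WT (log2 ratio -1.08, interval of the ratio 0.0489 to 2.37). Cdc5l, of the spliceosome, had 27 reads in tg and 61 in WT, and Cdc73, of the PAF1 elongation complex, 33 reads in tg and 38 in WT, both within 2-fold.

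**Figure D4:**
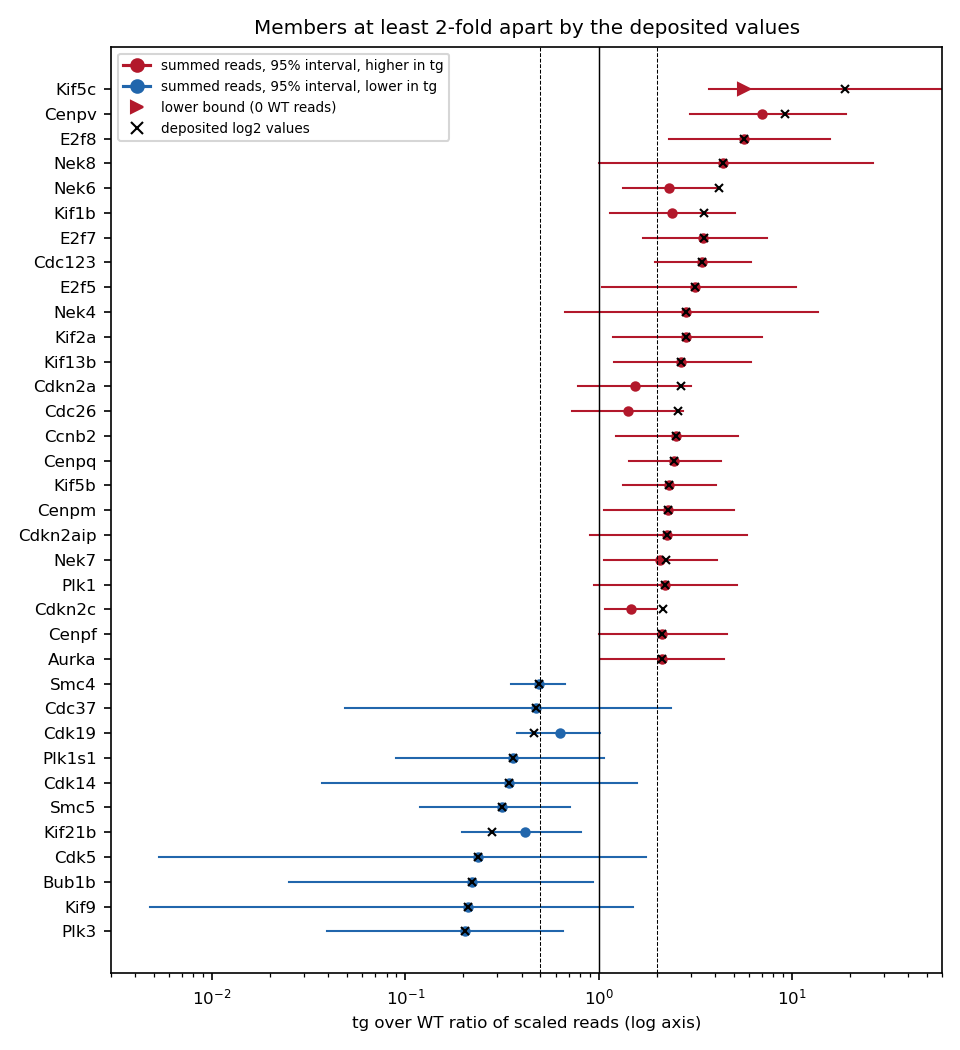
Ratio of scaled reads, tg over WT (horizontal log axis), of the 24 higher and 11 lower genes at least 2-fold apart by the deposited values; points are ratios of summed reads with 95% counting intervals, the triangle is the lower bound of Kif5c, crosses are the deposited ratios and dashed lines mark 2-fold. The intervals of 19 of the 24 higher and 5 of the 11 lower genes leave out 1, and, apart from the bound of Kif5c, crosses and points part only at genes with several probes.

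The intervals left out 1 for 19 of the 24 higher genes and 5 of the 11 lower genes. Within the 2-fold limits, the interval lay above 1 for 1 gene, Cdc6, and below 1 for 5, which were Cdkn1a, Ccnd2, Ccnl2, Cdc27 and Anapc11. Some of these values are shared with neighbours. Of the 148 genes, 18 had values identical to a gene within 100000 bp, and for 17 of them that gene lay within 3000 bp. The exception is Kif5a with Arhgap9, whose 3 reads in tg and 6 in WT may be equal without a shared probe. Another 17 had a count in tg and a count in WT that also occur at a gene within 3000 bp. The counts were matched in each library apart, so they need not come from the same probe. Small counts may also be equal without a shared probe. Where a probe is shared, its reads cannot be assigned to either gene alone.

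Across the 127 genes of the set with a RefSeq promoter window, E2F sites (TTTCCCGC, TTTCGCGC, TTTGCCGC or TTTGGCGC on either strand) were found in 13, or 10.2%. This compares with 4.45% of the 7484 table genes with a window and 2.16% of all 27025 genes with a window. A CHR element (TTTGAA or TTCGAA, either strand) was found in 33 genes of the set, 26.0%, against 15.1% of the table genes and 19.6% of all genes. A CCAAT box (CCAAT, either strand) was found in 59, 46.5%, against 40.7% and 37.5%. None of these words contains another, and for the 19 genes of the set with several windows a match in any was counted. All 13 genes with an E2F site belong to the cell cycle families. By direction, E2F sites were in 3 of the 21 higher genes with a window (Cdkn2a, Cenpm and E2f7), 0 of the 7 lower genes and 10 of the 99 others. CHR elements were in 4 higher, 1 lower and 28 other genes, and CCAAT boxes in 10, 2 and 47. A match describes the letters and does not show that a factor is bound.

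Further cell division genes whose symbols fall outside these families came from a list of 72, of which 69 had a row. Of these, 10 were higher, 14.5% beside the background of 16.5%, and 6 lower, 8.70% beside 15.8%, with a median log2 ratio of 0.08. Nuf2, a kinetochore gene of the NDC80 complex, had 22 reads in tg and 18 in WT, a log2 ratio of 2.36 by the deposited values but 2.31-fold higher by the sum over its 2 probes (1.18 to 4.57). Sgol1, the shugoshin gene that protects centromeric cohesion, had 46 reads in tg and 43 in WT, a log2 ratio of 2.17 but 2.02-fold higher by the sum (1.31 to 3.14). Both were thus over 1.5 times nearer to equality by summed reads. Fzr1, the activator of the anaphase-promoting complex in G1, had 34 reads in tg and 22 in WT (2.92-fold higher, 1.66 to 5.25), and the checkpoint kinase gene Ttk 24 reads in tg and 20 in WT (2.27, 1.20 to 4.33). Lower were Birc5, the survivin gene of the chromosomal passenger complex, with 7 reads in tg and 41 in WT (3.10-fold lower, 1.38 to 8.18), and the centrosome gene Pcnt with 9 reads in tg and 54 in WT (3.17-fold lower, 1.55 to 7.31). Wee1, the kinase gene that holds CDK1 inactive, had 22 reads in tg and 61 in WT over 3 probes, a log2 ratio of -1.25, but by the sum it was 1.47-fold lower with an interval that includes 1 (0.887 to 2.51). Incenp, a partner of Birc5 in its complex, was higher with 22 reads in tg and 19 in WT (2.19, 1.13 to 4.28).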

How the data were processed

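H3K9ac was measured by ChIP-seq in 1 library per genotype. Reads came from CASAVA 1.8.2, and the submitters' processing notes name BWA, SAMtools, FastQC and the build GRCm38 (mm10). The deposited values are log2 values per gene: from the values themselves, each is the mean over a gene's probes of log2 reads scaled to 1000000 per library, with 0 reads entered as 0.9 read. How the authors chose probes and treated duplicate reads is stated in none of the sources used. Whole reads per probe were recovered for genes with up to 5 probes (within 0.01 read), with a step checked on simulated data. Ratios of summed scaled reads carry exact conditional (Clopper-Pearson) 95% intervals (scipy 1.17.1), and a count of 0 was set at 3 reads for bounds. The analysis used Python 3.11.15, pandas 2.3.3, numpy 2.4.6, numba 0.67.0 and matplotlib 3.10.9. The 60 named genes checked under other settings are those at least 2-fold apart and the 2 most strongly marked of each role. Further genes were named after their values were seen. The genes and lists were chosen with earlier results of these data known. Promoter windows are RefSeq's 250 bases before the start site on GRCm38.p6, and 21 genes matched no entry.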

Additional observations from a re-analysis of the deposited data

How the results depend on the processing

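Counts of 24 higher and 11 lower genes changed by under 1.5 times with summed reads, median-centred values, a pseudocount of 10 scaled reads and genes with a neighbour's values left out. Of the 75 genes at or above the table's median level, 10 were higher (13.3%, against 10.2% of all genes at that level) and 2 lower (2.67% against 10.8%). Among the 112 genes with 1 probe, 15 were higher (13.4% against 14.3%). Among the 112 of cell cycle families, 5 were lower (4.46% against 15.8%), while the counting interval lay below 1 for 8 of them. A limit of 1.5-fold gave 53 higher (35.8% against 28.7%) and 22 lower genes (14.9% against 25.4%), and 3-fold gave 9 (6.08% against 8.49%) and 6 (4.05% against 7.99%). Of 60 named genes, none of those at least 2-fold apart changed direction under summed reads, which can differ only for genes with several probes. Centring and the pseudocount could not change the direction of a gene at least 2-fold apart. Among the named genes within 2-fold, Cdc25a had a log2 ratio of 0.23 by the deposited values and -0.42 by summed reads. Cdkn1b had 0.02 and, after centring, -0.02. Across the whole set, 4 genes differed in sign between the deposited values and summed reads. Besides Cdc25a these were Anapc10 (0.63 and -0.39), Cdk4 (-0.03 and 0.22) and Haus4 (-0.05 and 0.07). Summed reads put Cdc26, Cdk19, Cdkn2a and Cdkn2c under 2-fold. The pseudocount did so for Aurka, Cdc37, Cdk19, Cdkn2aip, Cdkn2c, Cenpf, Nek7 and Plk1. The causes were not tested. No paired analysis was possible because each genotype has 1 library, so no replicate could be left out either. The depth limits genes with few reads most: 3 reads correspond to 18.3 scaled reads in tg and 9.69 in WT.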
